A study of Homo sapiens with 33 samples.

Results

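Of 18852 genes with 1 annotated symbol on the array, 86 were detected at day 15 of the nociceptor differentiation called LSB3i and on no array of any other day or treatment. A gene belonged to this set if a probe of it had a detection p-value under 0.01 on all 3 LSB3i day 15 arrays and no probe of it had one under 0.01 on any of the other 30 arrays. The detection p-value of a probe on an array is the authors' deposited measure of how its brightness ranks among negative control probes, and it moves in steps of 0.001318. Before symbols were left out, 98 genes met the rule, and 12 of them belong to families of channels, transporters and homeobox genes that were left out by symbol (CACNG2, DLX1, HOXA2, HOXB2, KCNK3, KCNMB2, SCN2A, SCN9A, SLC12A5, SLC1A4, SLC23A2 and SLC5A7). Because the day 15 values chose the genes, their levels at LSB3i day 15 are given as a description, without a test.

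The cells were of the established human embryonic stem cell line H9 (WA-09), grown on mouse embryonic fibroblasts and then plated on Matrigel. LSB3i cells received LDN-193189, which blocks BMP type I receptors, SB431542, which blocks the receptors of TGF-beta, activin and nodal, CHIR 99021, which blocks the kinase GSK3, DAPT, which blocks gamma-secretase and so Notch signalling, and SU5402, which blocks FGF and VEGF receptors. LSB cells, labelled a neural differentiation, received LDN-193189 and SB431542 alone, so both treatments share these inhibitors. Total RNA was hybridised to Illumina bead arrays, 3 arrays (A, B and C) for each of 11 groups, which are LSB3i at days 3, 5, 7, 9 and 15, and LSB at those same days and at day 2. LSB3i at day 2 was not analysed here, and the labels do not give the day on which an inhibitor was added or withdrawn. They do not say that arrays A, B and C were separate cultures either, so the error behind each p-value is the array-to-array spread, which may be technical.

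Nociceptors are the sensory neurons that report damaging heat, pressure and chemicals, and in the embryo they come from the neural crest together with the Schwann cells that ensheathe them. A maturing neuron switches on genes in several classes at once, among them transcription factors, RNA-binding proteins, peptides packed into dense-core vesicles, receptors, and the proteins of the synapse. Neurons of the brain, the retina and the autonomic ganglia share many of these genes, so a neuronal gene by itself does not name a type of neuron.

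The labelled cell type was checked against marker genes. At LSB3i day 15, 5 of the 12 sensory neuron and nociceptor markers with a probe were detected on all 3 arrays (POU4F1, ISL1, PRPH, TAC1 and SCN9A), against 1 of 12 (ISL1) at LSB day 15. NGFR, RET, RUNX1, CALCA, SCN10A, TRPV1 and P2RX3 were not detected on all 3 LSB3i day 15 arrays. All 8 general neuronal markers were detected at LSB3i day 15, against 4 at LSB day 15. ELAVL4 among them is in the set, and SCN9A above met its rule before symbols were left out. For both, the rule fixed detection at LSB3i day 15 and none at LSB day 15, so they are no check. The summed normalized level of the neuronal markers was 101053 to 108630 at LSB3i day 15 and 6659 to 7718 at LSB day 15. Markers of other cell types moved too. Neural crest and Schwann cell markers were detected for 5 of 6 genes at LSB3i day 15 (SOX10, FOXD3, TFAP2B, ETS1 and ERBB3) and for 0 of 6 at LSB day 15, with summed levels of 6842 to 10326 and 380 to 499. Mesenchyme and smooth muscle markers were detected for 6 of 8 at LSB3i day 15 and 5 of 8 at LSB day 15, with summed levels of 29495 to 34756 and 12911 to 21111. Markers of blood and endothelium were at background at LSB3i day 15, with 0 of 4 detected in each list. Neural progenitor markers went the other way, with 3 of 6 detected and summed levels of 5362 to 5899 at LSB3i day 15. At LSB day 15 they were 5 of 6 and 35601 to 39130. Pluripotent cell markers were lower too, with 2 of 4 detected (DPPA4 and LIN28A) and summed levels of 4177 to 5023, against 3 of 4 and 13088 to 14086. Of 5 endoderm markers, AFP was detected at LSB3i day 15 and 0 at LSB day 15, with summed levels of 511 to 734 and 214 to 257. Of 5 melanocyte markers, PMEL alone was detected at LSB3i day 15, against 2 at LSB day 15. At LSB3i day 9, 5 of 12 sensory markers were detected (POU4F1, ISL1, NGFR, TAC1 and TRPV1). So were 7 of 8 neuronal, 4 of 6 neural crest, 7 of 8 mesenchyme and 3 of 6 progenitor markers. Most of the above markers detected at LSB3i day 15 were thus also detected at LSB3i day 9. The summed sensory level was 2031 to 13322 at LSB3i day 9 and 32507 to 35992 at LSB3i day 15. The neuronal and neural crest ones were 15478 to 33512 and 4433 to 9874 at LSB3i day 9. The part of any of these cells in the set was not tested, and in bulk RNA fewer cells of a type and less RNA per cell cannot be told apart.

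The rule found fewer genes in every other group. With no symbol left out it found 98 genes for LSB3i day 15. Applied in the same way to each of the other groups in turn, it found 17 genes for LSB day 2, 12 for LSB day 9, 10 for LSB day 15, 1 each for LSB days 3 and 7, and 0 for LSB day 5 and for LSB3i days 3, 5, 7 and 9. The LSB3i day 15 arrays detected neither the most probes (11797 to 11917, against 9320 to 13743 over the other 30 arrays) nor had the brightest mean signal (448 to 485, against 298 to 872). The set was 1.15% of the 7495 genes detected on all 3 LSB3i day 15 arrays. The LSB day 7 arrays stood apart from the rest, with correlations to their own group of 0.844 to 0.899, and no test below uses them other than through the shared model. The size of the set depended on the threshold. At a detection p of 0.05 the rule kept 18 genes, 13 of them among the 86, and with another group counted as detecting a gene only if all 3 of its arrays did, it kept 297.

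Most of the 86 genes were dim. Their mean deposited intensity at LSB3i day 15 had a median of 355 and ran from 256 (SYNPR) to 1592 (PMP2), with 6 genes at 1000 or more, 13 between 500 and 1000, 52 between 300 and 500, and 15 under 300. At LSB day 15 the same probes averaged 130 to 210 (lowest and highest gene, median 169.8), and at LSB3i day 9 they averaged 168 to 263 (median 207). These are unscaled values, and the medians over all probes differ in the same direction, at 219, 200.3 and 185 on the LSB3i day 9 arrays against 164, 161.0 and 199.6 on the LSB day 15 arrays. In 78 of the 86 genes the lowest LSB3i day 15 array was brighter than the highest of the other 30, which held for 4.64% of all 10038 genes tested. The rule selects for this separation, so nothing is read from the count. The 8 exceptions were ANKRD13B, LY6G5C, MEGF9, NKAIN2, NR4A2, PLPPR2, PRMT8 and RBMS3. Their highest other array was LSB3i day 9 A in 7 cases and LSB day 7 A for NKAIN2. LSB3i day 9 A had the highest detection floor of the 33 arrays, with a lowest detected signal of 349 against 233 to 268 on the LSB3i day 15 arrays, and 46 of the 86 genes had a mean at LSB3i day 15 above that floor.

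**Figure D1:**
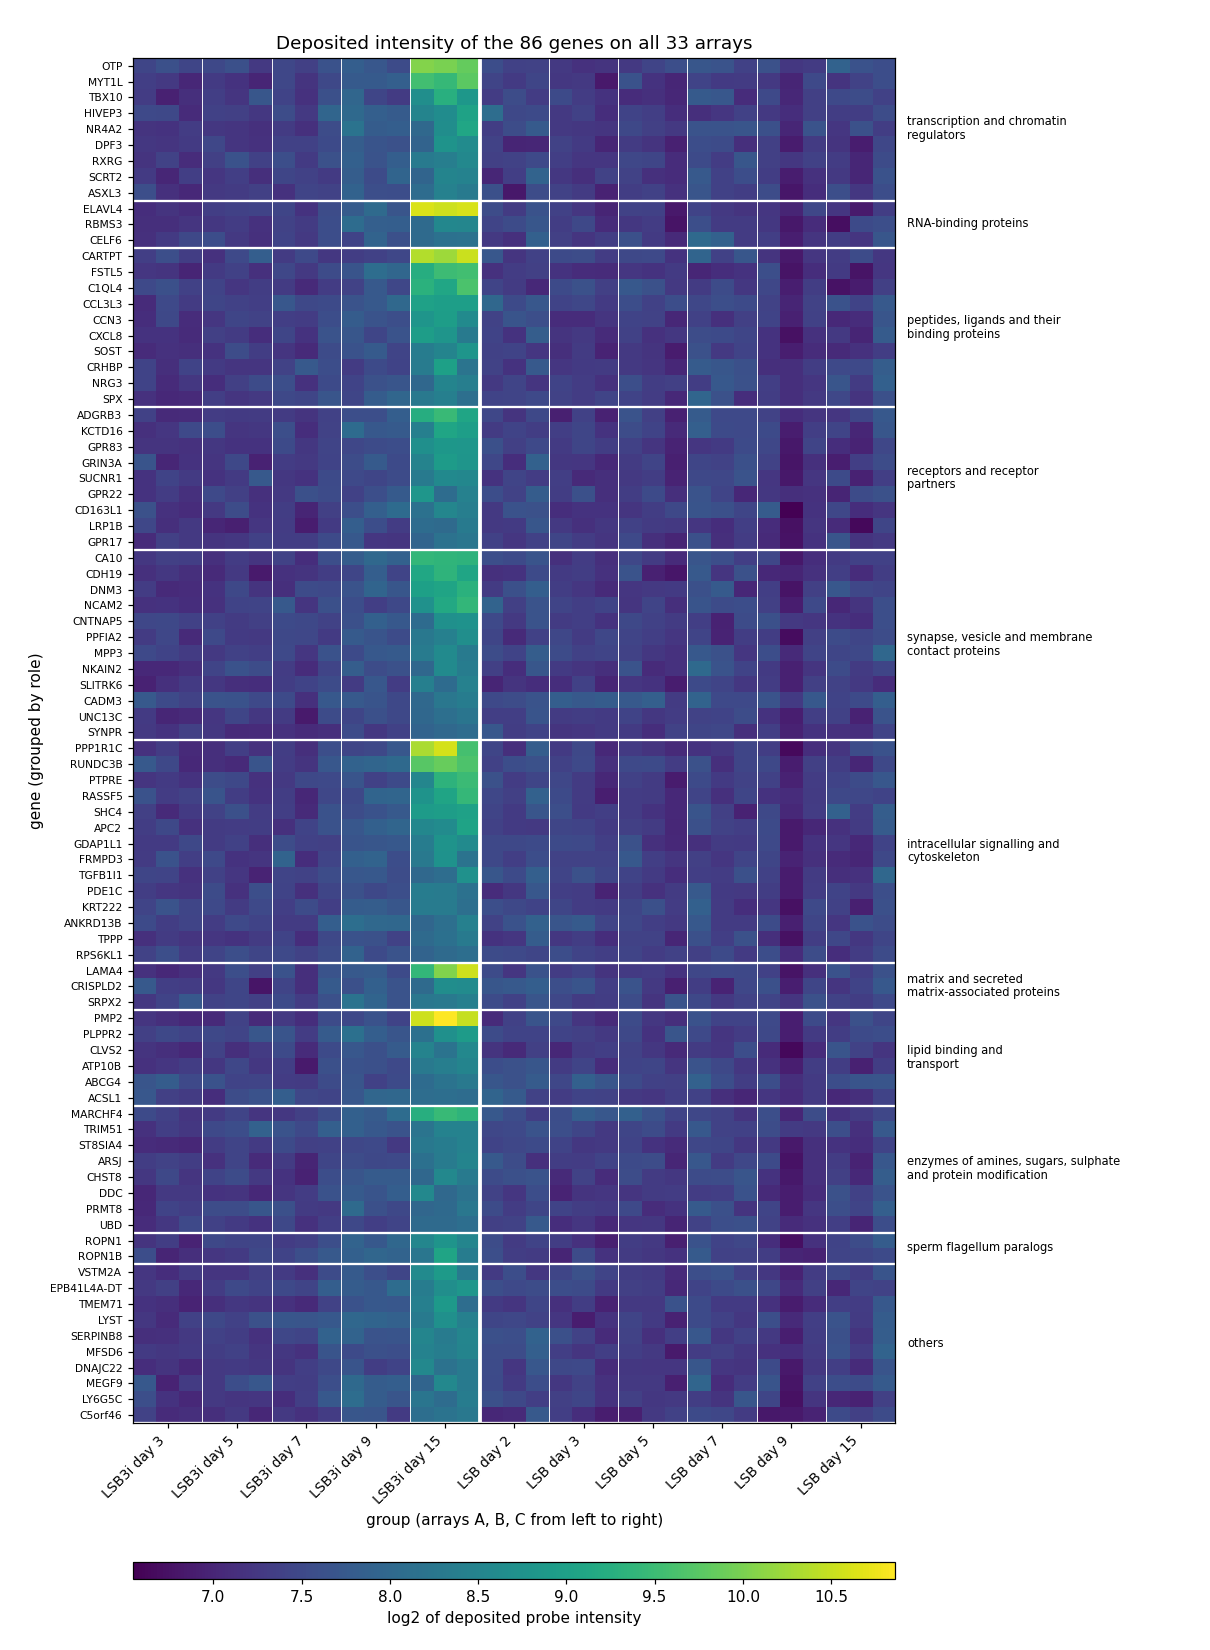
Deposited intensity of the 86 genes (rows, grouped by role) on the 33 arrays (columns, in groups of 3), as log2 of the value in the authors' non-normalized table. LSB3i groups stand left of LSB groups, separated by the thick white line, and the LSB3i day 15 columns are the brightest for nearly all rows.

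The promoters of the genes are shown for members on which the account turns, as stretches from 250 bases before to 50 bases after the annotated start of the gene. They come from RefSeq (build GRCh38.p14), which matched 76 of the 86 genes, and are printed 5′ to 3′ on the gene's strand. Capitals mark letters of 7 short motifs searched on both strands. One is TGACGTC, called here the cyclic AMP response element, whose full palindrome is TGACGTCA. Others are ATGCAAA (octamer), TATAAA (the box named for its first letters, here called TATA box) and TAATTA (the core that many homeodomains bind). The rest are CAGATG (an E box), the further E box CAGCTG, and GGGCGG (GC box). The first gene shown is CARTPT, the brightest peptide gene of the 86, on the plus strand at chr5:71719025-71719324. It has a cyclic AMP response element, a TATA box and CAGATG on the other strand.
CARTPT: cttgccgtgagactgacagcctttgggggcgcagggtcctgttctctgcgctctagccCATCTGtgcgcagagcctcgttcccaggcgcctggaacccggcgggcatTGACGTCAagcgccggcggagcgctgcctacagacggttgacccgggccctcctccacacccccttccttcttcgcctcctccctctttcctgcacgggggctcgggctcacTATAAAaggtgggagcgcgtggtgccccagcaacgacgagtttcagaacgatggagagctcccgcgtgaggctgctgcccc
The second is MYT1L, the minus strand at chr2:2331226-2331525, with an octamer on the other strand.
MYT1L: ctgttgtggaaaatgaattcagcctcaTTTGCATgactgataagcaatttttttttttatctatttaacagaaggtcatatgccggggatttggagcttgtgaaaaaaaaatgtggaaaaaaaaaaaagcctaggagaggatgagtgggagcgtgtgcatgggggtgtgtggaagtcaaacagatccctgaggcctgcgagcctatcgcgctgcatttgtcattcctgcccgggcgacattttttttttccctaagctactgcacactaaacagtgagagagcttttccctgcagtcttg
The third is OTP, the minus strand at chr5:77638664-77638963, with overlapping GC boxes.
OTP: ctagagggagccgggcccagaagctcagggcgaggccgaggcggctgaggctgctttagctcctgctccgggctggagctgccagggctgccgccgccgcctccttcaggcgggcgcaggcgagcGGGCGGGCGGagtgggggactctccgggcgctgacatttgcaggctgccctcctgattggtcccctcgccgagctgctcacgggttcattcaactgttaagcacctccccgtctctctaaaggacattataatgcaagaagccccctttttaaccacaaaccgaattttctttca
The last are the paralogs ROPN1, minus strand at chr3:123992075-123992374, and ROPN1B, plus strand at chr3:125968928-125969227, which share an unbroken run of 280 bases within these windows.
ROPN1: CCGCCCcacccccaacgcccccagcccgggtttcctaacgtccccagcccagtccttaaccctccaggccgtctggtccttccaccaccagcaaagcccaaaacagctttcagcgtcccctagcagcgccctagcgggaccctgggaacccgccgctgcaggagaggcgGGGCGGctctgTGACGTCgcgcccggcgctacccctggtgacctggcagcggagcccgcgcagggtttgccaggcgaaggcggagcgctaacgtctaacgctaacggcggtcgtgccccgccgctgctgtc
ROPN1B: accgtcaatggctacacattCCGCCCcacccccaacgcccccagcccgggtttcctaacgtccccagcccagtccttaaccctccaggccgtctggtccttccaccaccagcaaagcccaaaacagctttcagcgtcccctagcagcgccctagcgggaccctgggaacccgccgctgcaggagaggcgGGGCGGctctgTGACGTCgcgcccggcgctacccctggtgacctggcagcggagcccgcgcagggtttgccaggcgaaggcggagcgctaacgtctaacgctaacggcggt

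Across the 76 promoters, the cyclic AMP response element was present in 5 (6.6%, CARTPT, ROPN1, ROPN1B, ASXL3 and CELF6), against 3.6% of all 27305 promoters of that length. ROPN1 and ROPN1B share their copy within the shared run, and it lacks the last A of the full palindrome. The octamer was present in 6 (7.9%) against 4.5%, the TATA box in 12 (15.8%) against 12.0%, and CAGATG in 6 (7.9%) against 14.8%. TAATTA was present in 3.9% against 5.0%, CAGCTG in 15.8% against 17.7% and the GC box in 42.1% against 44.6%. Median GC content was 60.3% in the 76 promoters and 58.3% in all. These are descriptions of letters in a window, and no test was made.

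Transcription and chromatin regulators made up 9 of the 86 genes, with mean intensities at LSB3i day 15 from 313 to 1002. This grouping by role, like those below, was made after the members were known. OTP, a homeobox factor best known from hypothalamic neurons, had intensities of 1064, 1024 and 917 on arrays A, B and C of LSB3i day 15, against 239.6, 199 and 190.1 at LSB day 15. Over the 30 other arrays it lay between 143 and 239.6 (median 177). Here and below, separation of LSB3i day 15 from LSB day 15 is selected for by the rule and is only described. The groups were far apart, and OTP was at least 10.9-fold higher at LSB3i day 15 than at LSB day 15. This "at least" fold, used throughout, sets the mean of the normalized LSB3i day 15 values against the lowest detected level of each array of the dim group. The probe's own value is used where that is higher. Every member is below detection outside LSB3i day 15, hence this choice. The fold is a bound only on this normalized scale, after background subtraction, and was not computed under the alternatives. For bright genes such as OTP the ratio of the deposited intensities is smaller. This fold was at least 2-fold in 56 and at least 4-fold in 21 of the 86 genes over LSB day 15. For reading these counts, 13.3% of all genes tested were higher in that comparison by at least 2-fold at an adjusted p under 0.05, and the rule itself used the contrast.

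MYT1L, a zinc finger factor of postmitotic neurons, had 752, 693 and 873 at LSB3i day 15, against 146, 169 and 188 at LSB day 15 (at least 7.88-fold). A further MYT1L probe passed at a mean of 295. NR4A2, an orphan nuclear receptor needed by midbrain dopamine neurons, was uneven, with 258, 407 and 547 at LSB3i day 15 against 150.3, 195 and 161 at LSB day 15. Its array A value lay below the 292 of LSB3i day 9 A, so the groups overlap in intensity. SCRT2, a neuronal repressor of the Scratch family, had 245, 360.4 and 353 at LSB3i day 15 against 153, 129 and 198 at LSB day 15, with no overlap and a bound of 1.79-fold. The others were TBX10 (a T-box factor, mean 495 ± 111, SD, n = 3), HIVEP3 (a large zinc finger protein, 428 ± 84.4), DPF3 (a subunit of BAF chromatin remodelling complexes, 357 ± 102), RXRG (a retinoid X receptor, 346 ± 29.5) and ASXL3 (a Polycomb-associated protein, 313 ± 41.3). At LSB day 15 these 5 genes averaged between 148 and 179.

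RNA-binding proteins were 3 of the set. ELAVL4, the neuronal protein HuD that stabilises messages with AU-rich elements, had 1578, 1478 and 1562 at LSB3i day 15, against 150.4, 116 and 161 at LSB day 15 (at least 18.4-fold) and 220.2, 262 and 206 at LSB3i day 9 (at least 22.7-fold). It was among the steadiest of the bright genes, at 1539 ± 53.7 (SD, n = 3), and lay between 114 and 262 (median 162) over the other 30 arrays. RBMS3 and CELF6, also RNA-binding, averaged 336 ± 62.9 and 281 ± 14.1.

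**Figure D2:**
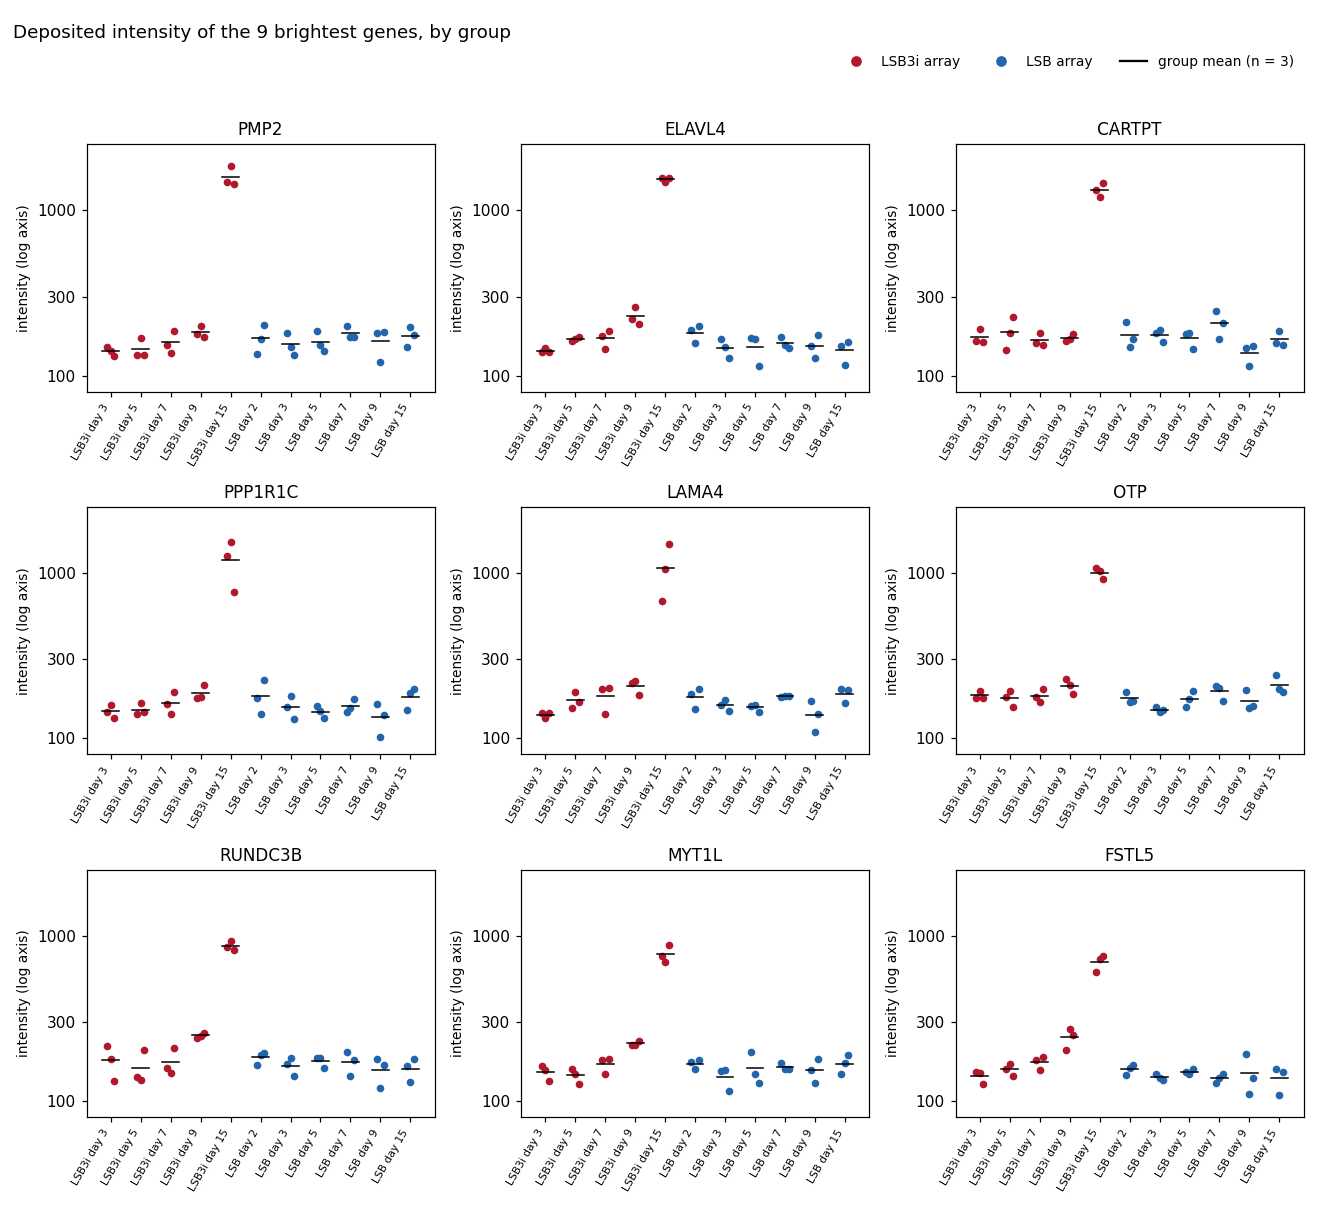
Deposited intensity (log axis) of the 9 brightest genes on each array, by group, with LSB3i groups in red left of LSB groups in blue, each point 1 array and each line a group mean (n = 3). In each panel the 3 LSB3i day 15 points lie above all other points, and the spread among them is widest for PPP1R1C and LAMA4.

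Peptides, ligands and their binding proteins numbered 10. CARTPT, which encodes the precursor of the CART neuropeptides, had 1321, 1205 and 1470.1 at LSB3i day 15, against 158, 185 and 152 at LSB day 15 (at least 15.5-fold), and 162, 167 and 177 at LSB3i day 9. Its 3 arrays stood well clear of all others, of which the highest was 245 on LSB day 7 A. CARTPT was the only member on a list of 50 neuropeptide and hormone genes on the array, 13 of which were detected on all 3 LSB3i day 15 arrays. SPX (spexin, a peptide) and CRHBP (the binding protein of corticotropin-releasing hormone) were dimmer, at 311 ± 31.7 and 378 ± 117.

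FSTL5, a secreted follistatin-like protein, had 603, 725 and 752 at LSB3i day 15, against 155, 109 and 149.6 at LSB day 15 and 203, 273 and 250.4 at LSB3i day 9. C1QL4, a secreted C1q-related protein, and ADGRB3, the adhesion receptor that C1q-like proteins bind, were both in the set. C1QL4 had 628, 551 and 803 at LSB3i day 15 against 108, 118 and 165 at LSB day 15 (at least 6.34-fold). ADGRB3 had 602, 714 and 541 against 149, 174 and 214 (at least 5.78-fold). Neither gene overlapped between the groups, which the rule selects for.

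Of the other ligands, CCN3, a matricellular protein, averaged 444 ± 51.2 at LSB3i day 15 and 158 ± 42 at LSB day 15. SOST, the Wnt antagonist sclerostin, averaged 378 ± 60.6 against 146 ± 14.3, but a further SOST probe did not pass the rule. NRG3, a neuregulin that binds ERBB4, averaged 317 ± 56.6 against 199 ± 39. The chemokine CXCL8 averaged 418 ± 92.3 by one probe, while its other probe did not pass the rule. CCL3L3, at 506 ± 10.1, belongs to a family of near-identical chemokine genes, so the transcript its probe reads is uncertain.

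Receptors and receptor partners numbered 9. KCTD16, an auxiliary subunit of the GABA-B receptor, had 342, 539.6 and 497 at LSB3i day 15 against 173, 129.5 and 208 at LSB day 15. GRIN3A, a subunit of NMDA glutamate receptors, had 355, 484 and 447 against 121, 163 and 187. GPR83, a peptide receptor, had 415, 456 and 451 against 138, 125 and 176, one of the tighter groups. In all 3 genes the LSB3i day 15 arrays lay above every LSB day 15 array, with bounds of 3.59-fold, 3.27-fold and 3.52-fold. GPR22, an orphan receptor, was brightest on array A, with 449, 269 and 349, and SUCNR1, the succinate receptor, averaged 359 ± 37.9. GPR17, known from oligodendrocyte precursors, averaged 280.0 ± 29.8, LRP1B, a large LDL receptor relative, 284 ± 30.5, and CD163L1, a scavenger receptor, 331 ± 42.1.

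Synapse, vesicle and membrane contact proteins formed a group of 12. CA10, a catalytically inactive carbonic anhydrase relative that binds neurexins, was bright and steady, with 682, 665 and 643 at LSB3i day 15 against 156, 166 and 166 at LSB day 15 (at least 6.46-fold). DNM3, a dynamin of endocytosis, had 510.4, 539 and 630.1 against 211, 178 and 173 (at least 5.05-fold). NCAM2, a neural adhesion molecule, had 423, 571 and 676 against 131, 146 and 193 (at least 4.92-fold). The 3 genes did not overlap between the groups, which the rule selects for. CDH19, a cadherin of the Schwann cell lineage, averaged 583 ± 60.8 at LSB3i day 15 and 154 ± 15.3 at LSB day 15 by one probe, while its other probe, at a mean of 179.6, did not pass the rule.

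The remaining synaptic and contact genes were dimmer. CNTNAP5, a neurexin relative, averaged 373 ± 91.6, the liprin PPFIA2 of the active zone 354 ± 51.2, the scaffold MPP3 343 ± 40.6, NKAIN2, a partner of the sodium pump, 324 ± 68.8, SLITRK6, a synaptic adhesion protein of the inner ear and retina, 318 ± 45.1, and CADM3, an axonal adhesion molecule, 298 ± 36.6. UNC13C, which primes synaptic vesicles, averaged 277 ± 22.9 against 164 ± 38.6 at LSB day 15. SYNPR, the vesicle protein synaptoporin, was the dimmest of the 86, with 242, 257 and 270.2 at LSB3i day 15 against 143, 138 and 169.9 at LSB day 15.

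Lipid-binding and transport genes included the brightest member. PMP2, the fatty acid-binding protein P2 of peripheral myelin, had 1475, 1863 and 1436 at LSB3i day 15, against 149, 197 and 175 at LSB day 15 (at least 19.1-fold). Over the 30 other arrays it lay between 120.0 and 203 (median 168), and its LSB3i day 15 arrays stood above all of them. PMP2 and CDH19 are both known from the Schwann cell lineage, whose markers are given above, and the part of such cells in their levels was not tested. PLPPR2, a phosphatase-related membrane protein, averaged 395 ± 103, CLVS2, a clathrin-associated lipid-binding protein, 343 ± 44.5, ATP10B, a flippase, 338 ± 24.4, and ABCG4, a sterol transporter, 290.4 ± 23.1. ACSL1, which activates long-chain fatty acids, was the most even, with 272, 275 and 269 at LSB3i day 15, but it had 211, 251 and 255 at LSB3i day 9, close below.

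Intracellular signalling and cytoskeletal genes numbered 14. PPP1R1C, an inhibitor of protein phosphatase 1, had 1272, 1529.6 and 771 at LSB3i day 15 against 149, 186 and 199 at LSB day 15 (at least 12.8-fold). Array C was the dimmest of the 3 and the SD was 32.4% of the mean, yet all 3 exceeded every other array. RUNDC3B, a RUN domain protein, had 852, 924 and 812 against 162, 129 and 179 (at least 9.11-fold). PTPRE, a receptor-type tyrosine phosphatase, had 369, 646 and 718 against 170.3, 184 and 209 and was uneven as well. RASSF5 (a Ras effector) averaged 553 ± 128, SHC4 (an adaptor of tyrosine kinase receptors) 499 ± 18.9, APC2 (a neuronal relative of the APC protein) 433 ± 86 and GDAP1L1 (a glutathione transferase-like protein) 383 ± 54.1.

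The other 7 genes of this class averaged between 261 and 345. They were FRMPD3, TGFB1I1 (a focal adhesion adaptor), PDE1C (a calmodulin-dependent phosphodiesterase), KRT222, ANKRD13B, TPPP (a microtubule-bundling protein of oligodendrocytes) and RPS6KL1. Of the PDE1C probes, 2 of 3 passed, with means of 313 and 298.

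LAMA4, the laminin alpha-4 chain of basement membranes, led the 3 matrix genes, with 677, 1059.6 and 1489 at LSB3i day 15 against 199, 164 and 196 at LSB day 15 (at least 11.3-fold). It had the widest relative spread of the set, an SD of 37.8% of the mean, although its lowest array still exceeded every other array. A further LAMA4 probe passed at a mean of 309.7. CRISPLD2 and SRPX2, both secreted, averaged 355 ± 79 and 319.9 ± 16.6. Mesenchyme markers, which were detected at both LSB3i day 15 and LSB day 15, are given above, and their part in these genes was not tested.

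Enzymes numbered 8. MARCHF4, a membrane ubiquitin ligase, had 609.9, 704 and 653 at LSB3i day 15 against 145, 157 and 176 at LSB day 15 (at least 6.37-fold), with no overlap. DDC, which makes dopamine and serotonin from their precursors, had 376, 257 and 290.1 against 196, 167 and 200.4 (at least 1.64-fold), and it passed the rule narrowly. ST8SIA4, which adds polysialic acid to NCAM1, averaged 330.0 ± 20.7 by 1 of its 4 probes. ARSJ (a sulphatase), CHST8 (a sulphotransferase of sugar chains), PRMT8 (a brain arginine methyltransferase), UBD (the ubiquitin-like protein FAT10) and TRIM51 averaged between 267 and 334.

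The sperm flagellum genes ROPN1 and ROPN1B averaged 389.7 ± 41.3 and 389.5 ± 128 at LSB3i day 15, against 195 ± 27 and 176 ± 6.1 at LSB day 15. They are near-identical copies, so their probes may read the same transcripts and they cannot be counted as independent. The last 10 members, of mixed or little-known roles, averaged between 293 and 396. They were VSTM2A, the noncoding EPB41L4A-DT, TMEM71, LYST (a regulator of lysosome size), SERPINB8, MFSD6, DNAJC22, MEGF9, LY6G5C and C5orf46.

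How well a gene was supported differed within the set. In 59 genes the array carried 1 probe, and in 27 it carried several, of which 19 had only 1 passing probe, 8 had more than 1, and in 3 of these 8 all passed (LAMA4, MYT1L and SERPINB8). Counting every probe of the 86 genes, 94 passed and 29 did not. In 19 genes the worst of the 3 detection p-values was 0. The SD at LSB3i day 15 had a median of 12.9% of the mean and was over 25% in 11 genes. The 3 arrays were not equivalent, since array A was the dimmest for 53 genes, array B for 13 and array C for 20, while the median over all probes was 173 on A, 179 on B and 204 on C. Over the 86 genes, the normalized log2 values of 2 arrays correlated at a Pearson r of 0.805 to 0.842, across genes that are not independent replicates.

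At the edge of the rule, 7 genes had a worst LSB3i day 15 detection p of 0.007905, the last step under the threshold (SYNPR, RPS6KL1, UBD, ACSL1, DDC, KRT222 and TMEM71). Just outside on that side lay CUBN (0.0105), CPA4 (0.0105) and EMILIN1 (0.0119). On the side of the other arrays, GRIK1 was kept out by 0.00922 on LSB day 3 B, NELL1 by 0.00922 on LSB3i day 7 A and MINAR1 by 0.00791 on LSB3i day 9 C.

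Values below the threshold on the other arrays were then examined, which the rule holds above 0.01 but does not otherwise fix. Over LSB3i days 3, 5, 7 and 9, the median detection p of the 86 genes was 0.418, 0.389, 0.263 and 0.206. In the 6107 genes never detected on any array it was 0.436, 0.433, 0.426 and 0.444. In the 6 LSB groups the 86 genes had medians of 0.306 to 0.489, with 0.366 at day 15, against 0.414 to 0.51 for the never-detected genes. The lowest medians of the set were thus those of LSB3i days 7 and 9.

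At LSB3i day 9, 17.1% of the set's values over the 3 arrays were under 0.05, against 4.7% in the never-detected genes. Most of these values came from 1 array, since 34 of the 86 genes were under 0.05 on array C, 7 on B and 3 on A. The medians on these arrays were 0.078 on C, 0.148 on B and 0.34 on A. Array C had the lowest detection floor of the 3 (271, against 293 on B and 349 on A), and array A correlated best with LSB3i day 7. The part of either in this difference was not tested. Of the 86 genes, 7 were under 0.05 on at least 2 LSB3i day 9 arrays (ACSL1, ANKRD13B, CA10, FSTL5, NR4A2, ROPN1B and RUNDC3B), against 2.06% of the never-detected genes. This count was not particular to LSB3i day 9. It was also 7 at LSB day 9 (3.47% of the never-detected genes), 6 at LSB day 3 and 5 at LSB3i day 7. The lowest of the 30 other detection p-values lay at LSB3i day 9 for 28 of the 86 genes, against 7.8% of the never-detected genes. The highest of the 30 other intensities lay there for 51 genes, but also for 42.0% of the never-detected genes, and after normalization the highest value lay there for 11 of the 86.

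**Figure D3:**
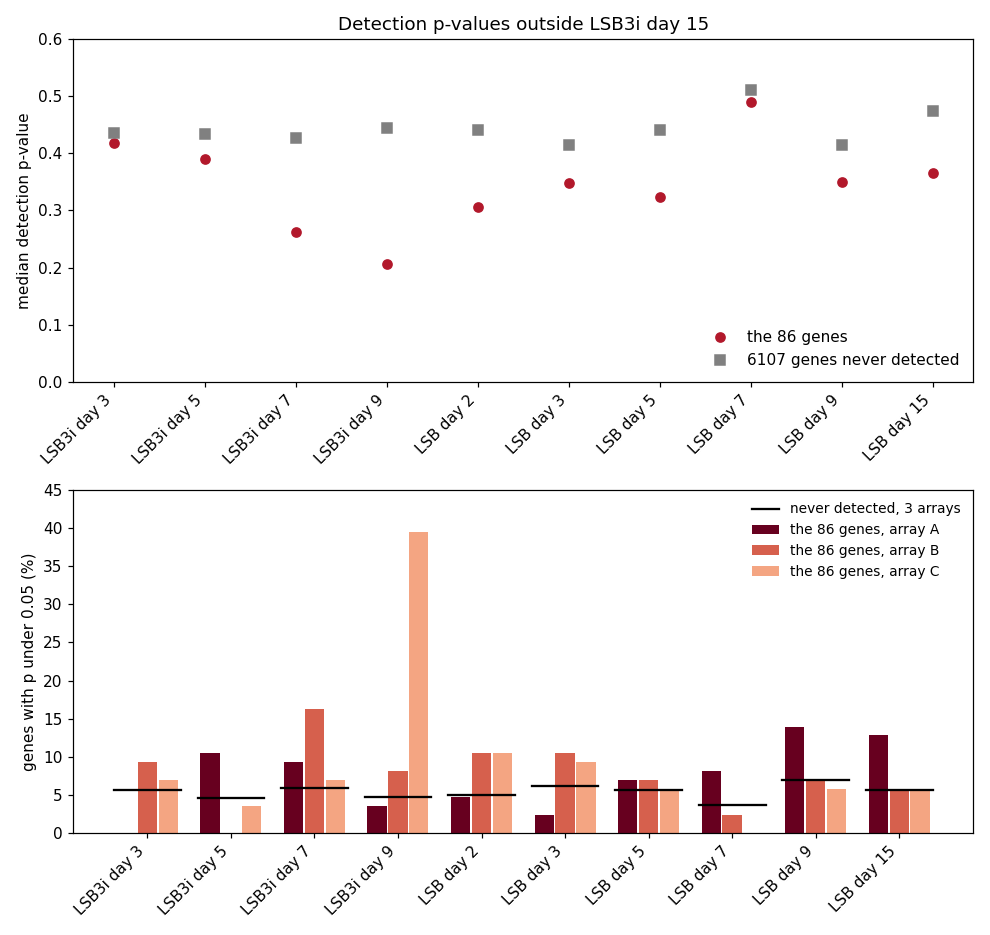
Detection p-values outside LSB3i day 15, by group. The upper panel gives the median for the 86 genes (circles) and for genes never detected (squares), lowest at LSB3i day 9 for the 86 genes, and the lower panel gives the share of the 86 genes under 0.05 on each array (bars) beside the share over the never-detected genes (lines), highest on array C of LSB3i day 9.

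Whether the genes already differed by treatment at day 9 was tested between arrays of day 9, and the LSB3i day 15 arrays entered only the shared estimate of spread. The 86 genes were among the genes tested only because they were detected on the LSB3i day 15 arrays. Of the 86 genes, 4 were higher at LSB3i day 9 than at LSB day 9 (ROPN1, RBMS3, CA10 and FSTL5) and 1 was lower (CADM3), in limma with Benjamini-Hochberg adjustment over 10038 genes at an adjusted p under 0.05. That is 5.8% of the set, against 28.5% of all genes tested (15.0% higher and 13.6% lower) and against 3.29% of the 365 other tested genes that were below detection on all 6 arrays. The rule holds the 86 genes below detection in both groups, so no fold is given and nothing is read from the share called. Each of the 365 other genes was detected in some other group, which need not be LSB3i day 15, so they are not a matched set. The same limits hold for the comparisons over time below. The median log2 difference of the set was 0.2, against 0.014 over all genes tested, and 60 of 86 genes lay above 0. Of the 365 other genes below detection, 47.7% lay above 0. Without LSB3i day 9 C the set's median was 0.099, with 51 of 86 genes above 0.

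FSTL5 had 203, 273 and 250.4 at LSB3i day 9 against 191, 109.8 and 138 at LSB day 9 (limma adjusted p = 0.0296). ROPN1 had 244, 213 and 255 against 139, 105 and 144 (limma adjusted p = 0.00192). CA10 had 223, 258 and 236.1 against 176, 113 and 138 (limma adjusted p = 0.00691). The deposited values of the LSB3i day 9 arrays lay above those of every LSB day 9 array in these genes and in RBMS3 (limma adjusted p = 0.0046), but so they did in 68 of the 86 genes and in 61% of all genes tested. After normalization the groups did not overlap in ROPN1 and RBMS3 and overlapped in CA10 and FSTL5. On normalized values LSB3i day 9 lay wholly above in 17 of the 86 genes and in 28.1% of all genes. It lay wholly below in 2 of the 86 and in 27.7% of all genes. CADM3 had 216.0, 203 and 179 at LSB3i day 9 against 202, 156 and 212 at LSB day 9 (limma adjusted p = 0.0289). Its deposited intensities overlapped, and it was lower at LSB3i day 9 only after normalization. The count fell to 2 without LSB3i day 9 B and to 3 without LSB3i day 9 C, LSB day 9 B or LSB day 9 C, and it was 22 with arrays weighted by quality, a fit that called 56.7% of all genes. FSTL5 lost its call in 8 of the alternatives (limma adjusted p up to 0.191) and CADM3 in 7, while ROPN1 and RBMS3 lost it in 0. With each array scaled to a common median, the median difference was 0.215 for the set and 0.161 for all genes.

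Within LSB3i, 5 of the 86 genes were higher at day 9 than at day 3 (FSTL5, ELAVL4, RBMS3, ROPN1 and LYST) and 1 was lower (ABCG4). That is 7.0% of the set, against 27.5% of all genes tested and 10.7% of the 356 other tested genes below detection on all 6 arrays. This comparison shares the LSB3i day 9 arrays with the previous one. ELAVL4 had 220.2, 262 and 206 at LSB3i day 9 against 139, 146 and 139 at LSB3i day 3 (limma adjusted p = 0.00605). FSTL5 had 203, 273 and 250.4 against 150.0, 147 and 127 (limma adjusted p = 0.00434). LYST had 255, 244 and 236.4 against 152, 136 and 167 (limma adjusted p = 0.0225). In these 3 genes the groups did not overlap, on deposited or normalized values, although on deposited values LSB3i day 9 lay wholly above in 64 of the 86 genes and in 55.6% of all genes. On normalized values LSB3i day 9 lay wholly above in 20 of the 86 genes and in 24.9% of all genes. It lay wholly below in 2 of the 86 and in 25.2% of all genes. ABCG4 overlapped on deposited values alone, with 205, 168 and 184 against 206, 223 and 181 (limma adjusted p = 0.0311 on the normalized values). The set's median log2 difference was 0.184, against 0.014 over all genes, and 69 of 86 genes lay above 0, as did 41.6% of the 356 other genes below detection. Without LSB3i day 9 A the set's median was 0.289, and without LSB3i day 9 C it was 0.126. With each array scaled to a common median instead, the medians were 0.205 and 0.2. The count of called genes was 10 without LSB3i day 9 A, 3 without LSB3i day 9 B, 4 without LSB3i day 9 C or LSB3i day 3 B, and 30 with weighted arrays, a fit that called 54.3% of all genes. LYST lost its call in 6 of the alternatives (limma adjusted p up to 0.118), ABCG4 in 4 and ROPN1 in 3. FSTL5, ELAVL4 and RBMS3 each lost it in 1.

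**Figure D4:**
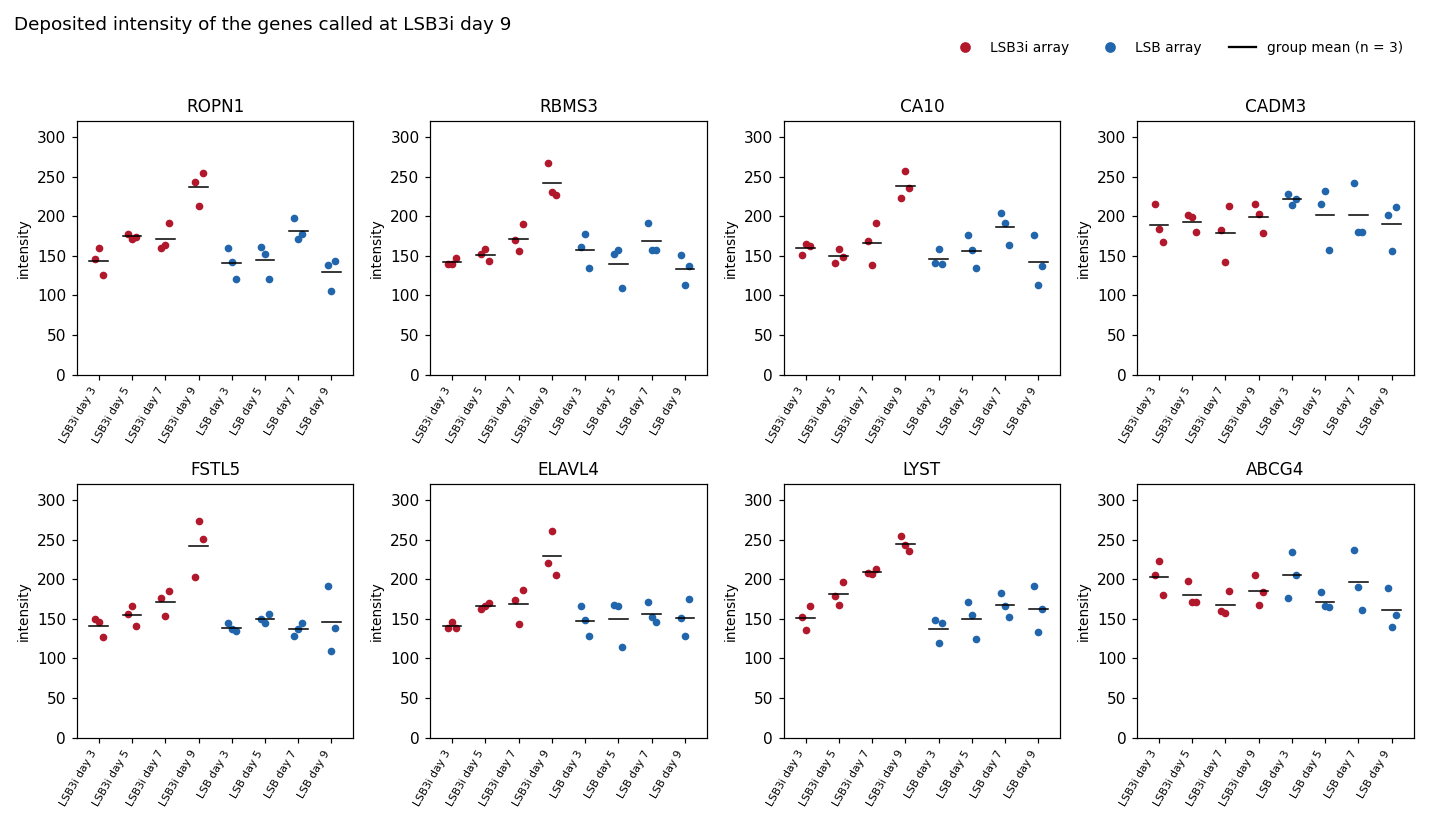
Deposited intensity of the 8 genes called at LSB3i day 9 against LSB day 9 or against LSB3i day 3, on each array of days 3 to 9, with LSB3i groups in red left of LSB groups in blue and lines at the group means (n = 3). FSTL5, ELAVL4, RBMS3, ROPN1, CA10 and LYST are brightest at LSB3i day 9, whose arrays are also brighter over all probes, and CADM3 and ABCG4 overlap between groups.

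Under LSB alone, 4 of the 86 genes were higher at day 15 than at day 3 (ROPN1, OTP, LYST and MFSD6) and 2 were lower (MARCHF4 and C1QL4). That is 7.0% of the set, against 37.7% of all genes tested and 5.61% of the 374 other tested genes below detection on all 6 arrays. OTP had 239.6, 199 and 190.1 at LSB day 15 against 154, 143 and 147 at LSB day 3 (limma adjusted p = 0.0067). MARCHF4 had 145, 157 and 176 against 189, 229.7 and 211 (limma adjusted p = 0.00152). Every value was below detection. MARCHF4 was separated between the days on deposited and normalized values, and OTP on deposited values alone. Such separation was common. On deposited values LSB day 15 lay wholly below LSB day 3 in 47.8% of all genes and wholly above in 10.7%. On normalized values these shares were 27.5% and 26.4%. C1QL4, which was lower by the test (limma adjusted p = 0.00615), had 108, 118 and 165 against 183, 196 and 164.5, so 1 array overlapped before normalization. MFSD6 was the weakest call (limma adjusted p = 0.0491) and overlapped on deposited and normalized values. It lost its call in 11 of the alternatives (limma adjusted p up to 0.25). The set's median log2 difference was 0.089, against -0.019 over all genes, and it was 0.028 without LSB day 15 A, 0.052 without LSB day 15 B and 0.049 without LSB day 3 A. Without LSB day 15 B, 10 genes were called, and without LSB day 15 A, 4 were called and OTP was not among them.

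To place the set among related genes, 17 lists of gene families were used, with the 86 genes left out. Of the 86 genes, 26 were on a list and 60 on none. Of 1112 other listed genes tested, 241 were higher and 199 lower at LSB3i day 15 than at LSB day 15 (limma adjusted p under 0.05 and at least 2-fold), a median log2 difference of 0.08. Over the 9952 genes tested that are not in the set, 1251 were higher and 1590 lower, with a median of -0.11, and 29.2% of all genes tested were called.

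Synaptic vesicle and release genes, the list of DNM3, SYNPR and UNC13C, had 28 higher and 10 lower of 61 others, and neuronal cytoskeleton genes, the list of TPPP, 35 higher and 19 lower of 108. Sensory and neuronal transcription factors, the list of MYT1L, NR4A2 and SCRT2, had 20 higher and 10 lower of 45. Adhesion and axon guidance genes, the list of CADM3, CDH19, CNTNAP5 and NCAM2, had 29 higher and 22 lower of 87, and G protein-coupled receptors 17 higher and 13 lower of 66. Secreted growth factors, the list of FSTL5, NRG3, CXCL8 and CCL3L3, had fewer genes higher than lower, 14 against 21 of 72. So did immune genes, the list of LY6G5C and SERPINB8, with 6 against 14 of 67. Lists without a member did so too for zinc finger genes (23 against 43 of 358), muscle genes (2 against 9 of 30) and growth factor receptors (8 against 9 of 29). The remaining lists had more genes higher than lower. SNAP25, a protein of vesicle fusion, was at least 57.4-fold higher at LSB3i day 15 (limma adjusted p = 1.9e-13). CNTN2, an axonal adhesion molecule, was at least 20.7-fold higher (limma adjusted p = 1.1e-06). DKK1, a Wnt antagonist, was at least 12.4-fold lower (limma adjusted p = 2.1e-07).

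Genes that narrowly missed the set were counted as well. Detected on all 3 LSB3i day 15 arrays and on other arrays besides, 38 genes had 1 other array, 52 had 2 and 34 had 3. Of the 142 detections on other arrays among the 90 genes with 1 or 2, 70 (49.3%) were on LSB3i day 9, 22 (15.5%) on LSB day 15, 16 (11.3%) on LSB day 2 and 11 (7.7%) on LSB3i day 7. The 70 were unevenly spread, with 0 on array A, 24 on B and 46 on C, as were the 22 of LSB day 15, with 1 on A, 7 on B and 14 on C. Over all probes, arrays A, B and C of LSB3i day 9 detected 12368, 13161 and 13743. Those of LSB day 15 detected 11639, 11881 and 12562. The part of these differences in the shares was not tested, and no such share was computed for other genes.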

How the data were processed

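The non-normalized table that the authors deposited gives each probe's bead intensity (linear scale) on each array. Beside it stands the deposited detection p-value. Per the submitters' processing notes GenomeStudio was used, version not stated there. A deposited processed table, also intensity on a linear scale, carries probe IDs that mostly do not match, so its rows were paired by ranks (48780 of 48803, 2395 with the same ID) and used as an alternative only. Probes were named from GEO's platform annotation, where 28098 have 1 symbol, 13 several and 20692 none. Intensities were corrected by normexp in limma 3.58.1 (R 4.3.3, offset 16), quantile-normalized and taken to log2. Probes detected at a p-value under 0.01 on all 3 arrays of a group entered, and the brightest stood for its gene (10038 genes). A member's own values come from its brightest passing probe. All 33 arrays went into a single limma model of 11 groups (lmFit, eBayes, Benjamini-Hochberg), leaving 22 residual degrees of freedom. Precision is limited by the number of arrays. Tables and figures used Python 3.11.15, pandas 2.3.3, scikit-learn 1.9.0 and matplotlib 3.10.9.

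The 86 genes, the lists and the alternatives were chosen with earlier results of these data known. Named by rule were the 12 brightest members, up to 8 members of each list, members at the edges of the rule, members called without LSB3i day 15, the 3 brightest with several probes and up to 3 called genes of each list. The text prints a part of these list genes, and members outside the rule are named to account for the whole set. Tested on simulated data, the fit called 66 to 82% of genes shifted by 1.5 (log2) and 94 to 97% of those shifted by 2.5, with 7 to 13 of 9838 unchanged genes called, over the 4 comparisons. Deviations of arrays with the same letter correlated at -0.081 to 0.061, so letters were not taken to pair arrays. Of all arrays, 9 of 33 correlated best with another group, among them the LSB3i A arrays of days 5, 7 and 9, and all kept their labels.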

Additional observations from a re-analysis of the deposited data

How the results depend on the processing

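The set of 86 genes became 18 at a detection threshold of 0.05 (13 of them among the 86), 58 at 0.001 (19 shared) and 297 where another group counted only if all 3 of its arrays passed. Leaving out 1 LSB3i day 15 array gave 99 to 101 genes. For LSB3i day 9 against LSB day 9 (5 called), a 2-fold minimum gave 0 members called in limma (9 at an unadjusted p under 0.05), the authors' processed values 3, a fit of only the groups compared 11 (42.6% of all genes called), array weights 22 (56.7% of all genes), and leaving out 1 array 2 to 7. For LSB3i day 9 against LSB3i day 3 (6 called), the 2-fold minimum gave 0 (12 at an unadjusted p under 0.05), array weights 30 (54.3% of all genes), and leaving out 1 array 3 to 10. For LSB day 15 against LSB day 3 (6 called), the 2-fold minimum gave 2 and leaving out 1 array 4 to 10. Of the listed genes outside the set, 440 were called, 265 with the authors' processed values and 423 to 446 without 1 array. With the array letter as a replicate block the counts were 5, 6, 6 and 438, and it changed no count by over 1.5 times. Scaling to a common median moved the median of all genes to 0.161, 0.2, -0.643 and -0.22 in the 4 comparisons. The set's median minus that of all genes then was 0.053, 0.005 and 0.692, and ranged from 0.053 to 0.203, 0.005 to 0.276 and 0.042 to 0.692 over the alternatives. Of the results for single genes, 968 kept their call and 52 lost it, and 0 reversed. These counts pool calls of the set with calls of listed genes outside it. Among the listed genes only PKD1 (3 alternatives) and PIEZO2 (2) lost a call. All other losses fell on genes of the set, up to 11 for MFSD6, while MARCHF4 and C1QL4 lost the call in 0. The pooled counts thus do not describe the set. The cause of these differences was not tested. Most members lay close to the detection floor, which limits all differences outside LSB3i day 15.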

Other observations

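Among the 90 genes that missed the set through detection on 1 or 2 other arrays, POSTN, POU4F2, RGCC, XKR4 and PAG1 had means at LSB3i day 15 above 1592, the highest mean of the 86, and these genes and the 4 described here were chosen after their values were seen. POSTN, the matrix protein periostin, had 2665, 4728 and 4036 at LSB3i day 15 against 191, 232 and 312 at LSB3i day 9, and was detected besides on LSB3i day 9 C alone. POU4F2, a POU factor of sensory and retinal neurons, had 2025, 2322 and 2248 against 222, 389.5 and 389.9, with detection on arrays B and C of LSB3i day 9. CNR1, the cannabinoid receptor, had 1345, 1312 and 1075 at LSB3i day 15 against 206, 358 and 309 at LSB3i day 9. GABBR2, the receptor subunit whose partner KCTD16 is a member, had 674, 890.0 and 1027 at LSB3i day 15 against 332, 512 and 856 at LSB3i day 9. In POU4F2, CNR1 and GABBR2 array A of LSB3i day 9 was the dimmest of the 3 and was not detected.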
